A study of Mus musculus with 11 samples.

Results

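Streptozotocin (STZ) injured pancreas of offspring from control-fed dams was compared directly with sham-injected pancreas of offspring from protein-restricted dams, on 2 and 3 arrays of the 11 in the series. The arrays of the 2 groups were taken by their diet and injection labels. The control STZ group held replicates 1 and 3 of female Balb/C offspring whose dams ate a diet with 20% protein in gestation and which received 35 mg of STZ per kg body weight daily from day 1 to day 5 of life. The low protein sham group held replicates 1, 2 and 3 of female Balb/C offspring whose dams ate an isocaloric diet with 8% protein in gestation and which received vehicle on the same days. All dams ate the control diet from birth on, and every pancreas was taken at 30 days of age. A control STZ replicate 2 was not analysed here. The groups differ in both diet and injection, so a difference between them cannot be assigned to either one, and litter and diet cannot be told apart because the labels name no litters. The labels call the samples biological replicates.

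Streptozotocin is a glucose analogue that enters β cells through the transporter encoded by Slc2a2, alkylates their DNA and kills them. Restriction of maternal protein in gestation is known to reduce islet mass in the offspring without a toxin. Most of the RNA of a pancreas comes from acinar cells, which make digestive enzymes at a very high rate and depend on ribosomes, endoplasmic reticulum (ER) chaperones and amino acid supply. The direct comparison asks in which transcripts the 2 insults leave the organ different.

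The values are log2 probe set signals. Array medians were between 7.92 and 7.97. Correlations over all one-gene probe sets ran from 0.9927 to 0.994 among the low protein sham arrays, stood at 0.9908 between both control STZ arrays and ran from 0.9897 to 0.9941 across the groups, so the control STZ arrays resembled each other no more than arrays of different groups did. Control STZ 1 lay apart from the other 4 arrays on the first principal component, which carried 39.5% of the variance. It had a score of -27.96, against scores from -2.81 to 12.77. The 3' minus 5' signal of the Actb and Gapdh control probe sets, a measure of RNA integrity in which a higher value means more 3' bias, was lowest in control STZ 1 (1.08) and highest in control STZ 3 (1.93), with the low protein sham arrays between them at 1.64, 1.502 and 1.22. The tissue label was borne out by its markers, since all 22 acinar enzyme genes matched had mean signals from 12.72 to 15.55 over the 5 arrays, and the 6 islet hormone genes matched had mean signals from 8.74 to 13.63.

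No probe set separated the groups past the threshold. With limma and Benjamini-Hochberg adjustment over 34958 one-gene probe sets, 0 had an adjusted p under 0.05 (0.0%), and the smallest adjusted p was 0.524. At an unadjusted p under 0.05 there were 2282 probe sets, of which 1708 were higher and 574 lower in control STZ. Of these, 86 also differed by at least 1.5-fold, 72 higher and 14 lower. Single arrays set these counts, with 3994 and 492 without control STZ 3, 203 of the latter kind without low protein sham 1 and 55 without low protein sham 2. Without control STZ 3 that group is 1 array, which is assumed to vary like the low protein sham arrays. All differences below are therefore values that did not pass the test. As a second description, a gene is called separated when both control STZ arrays lie on one side of all 3 low protein sham arrays at its brightest probe set. Over 15909 genes above a dim limit of 6.87, 15.4% were separated with control STZ higher and 7.1% with control STZ lower.

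The direction of the difference moved with the brightness of the probe set. Genes with a mean signal of 8 to 9 had a median difference, control STZ minus low protein sham, of 0.01 (log2), and 10.7% of them were separated with control STZ higher. For genes between 12 and 13 the median was 0.35 and the share 68.6%, and for the 27 genes between 15 and 16, of which 18 are acinar enzymes, the median was 0.27. Cyclic loess scaling between the 5 arrays, which removes trends with brightness, brought the median of the 12 to 13 band to 0.10 and turned that of the 15 to 16 band to -0.20. After it, 9.88% of genes were separated with control STZ higher and 12.7% with control STZ lower, and the 1847 probe sets with an unadjusted p under 0.05 were split into 938 higher and 909 lower. Medians and counts of the gene groups below are given on both scales. Beside counts of separated members stand the shares over all genes above, or the share among genes in the same signal band that are not on the list. Whether the trend with brightness belongs to the RNA or to the arrays was not tested.

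**Figure D1:**
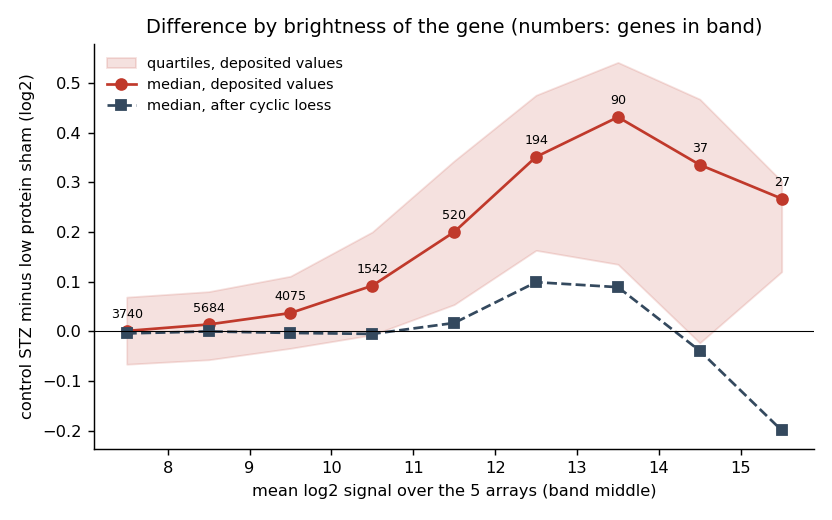
Median difference (control STZ minus low protein sham, log2) of genes in bands of mean signal over the 5 arrays, with the deposited values in red (shading: quartiles; numbers: genes in the band) and after cyclic loess in dark squares. The deposited medians go from 0.00 in the dimmest band to 0.43 between 13 and 14, and the loess medians lie near 0 except in the brightest bands.

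Islet hormone transcripts overlapped between both insults. Ins2, which encodes insulin, had signals of 13.10 and 13.41 in the control STZ arrays and of 14.47, 13.91 and 13.27 in low protein sham arrays 1, 2 and 3. Low protein sham 3 lay between both control STZ arrays, and the other 2 lay above them. The mean difference was -0.63 ± 0.33 (log2, SE; limma adjusted p = 0.828). It was -0.96 after cyclic loess, where the arrays no longer overlapped, and -0.34 without low protein sham 1. The probe set may also detect transcripts of Ins1, the other insulin gene. In whole organ RNA, fewer cells of a type and less RNA per cell cannot be told apart. For scale, the control sham arrays averaged 14.97 ± 0.23 (SD, n = 3) and the low protein STZ arrays 13.13 ± 0.38 (SD, n = 3).

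Iapp, which encodes the amyloid peptide that β cells secrete with insulin, had signals of 12.72 and 12.40 in control STZ and of 13.69, 12.72 and 12.04 in low protein sham. The difference was -0.26 ± 0.44 (adjusted p = 0.939), and without low protein sham 1 it became 0.18. G6pc2, a glucose-6-phosphatase enzyme that β cells use, had signals of 6.80 and 6.62 against 7.45, 7.42 and 6.80. Its difference of -0.51 ± 0.20 (adjusted p = 0.751) was also -0.51 after cyclic loess, and low protein sham 3 overlapped with control STZ 1. Both control STZ signals and that of low protein sham 3 lay under the dim limit of 6.87, so the size of this difference is uncertain. Slc2a2, the glucose transporter through which STZ enters, was under the dim limit in this comparison, with signals of 5.98 and 6.002 against 6.45, 5.92 and 6.10.

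Hormones of the other islet cells leaned the opposite way at Gcg and Sst. Gcg, which encodes glucagon of α cells, had signals of 13.36 and 13.12 in control STZ and of 13.65, 12.34 and 11.48 in low protein sham. The low protein sham arrays thus spanned more than 2 log2 units and enclosed both control STZ arrays. The difference of 0.75 ± 0.57 (adjusted p = 0.870) became 1.33 without low protein sham 1 and 0.25 without low protein sham 3. Sst, somatostatin of δ cells, had signals of 9.87 and 9.74 against 10.02, 9.34 and 9.06, a difference of 0.33 ± 0.27 (adjusted p = 0.876). It was 0.60 without low protein sham 1 and 0.12 without low protein sham 3. Ppy and Pyy, the pancreatic polypeptide and peptide YY genes, differed by -0.06 ± 0.24 and -0.11 ± 0.35 and turned to 0.19 and 0.26 without low protein sham 1. In all 6 hormone genes low protein sham 1 was the brightest of the 5 arrays, and low protein sham 3 was the dimmest of its group.

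**Figure D2:**
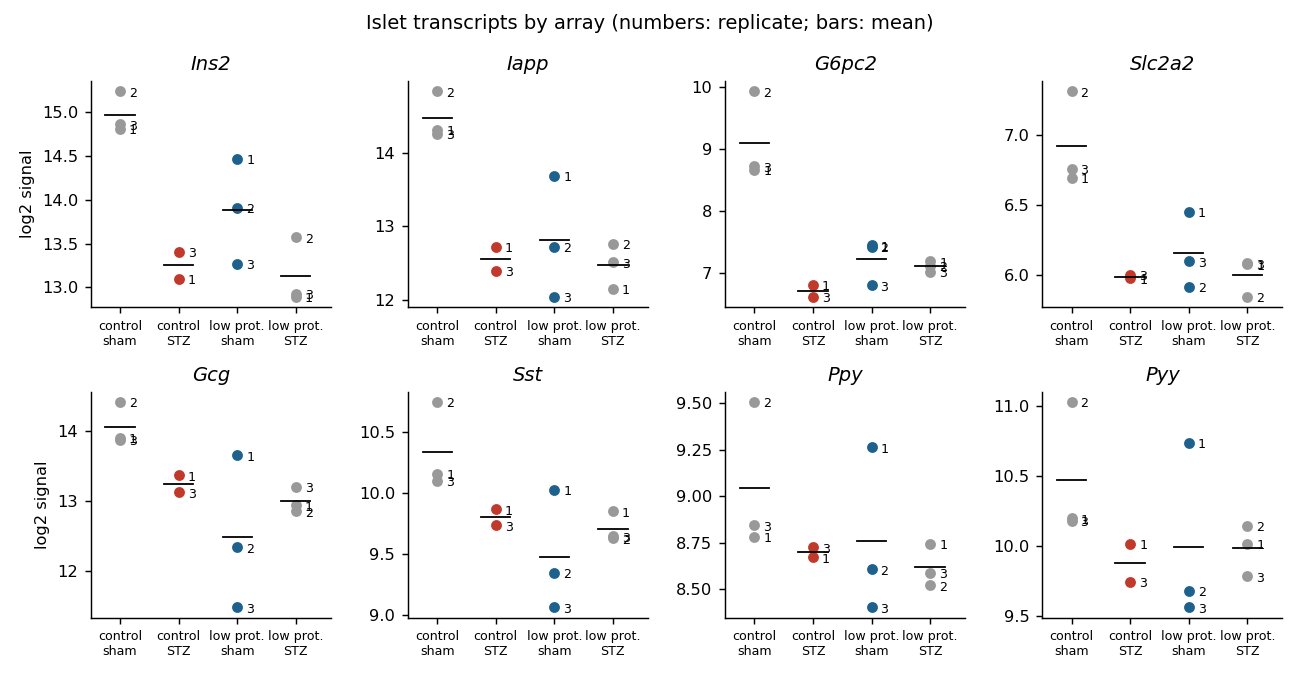
Log2 signal of 8 islet genes on each of the 11 arrays (points, with the replicate number; horizontal bars: group means), control STZ in red, low protein sham in blue and the groups outside the comparison in grey. The 2 groups overlap in each panel, low protein sham 1 is high in each, and the control sham means lie above both groups, for Ins2 at 14.97 against 13.25 and 13.88.

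Of the 17 β cell identity genes above the dim limit, 1 was separated with control STZ higher and 3 with control STZ lower, against 15.4% and 7.1% over all genes, and the median difference was -0.035 against 0.03. After cyclic loess the counts were 0 and 4 and the median -0.05. The 3 lower ones on the deposited scale were Nkx2-2, a β cell transcription factor (-0.15 ± 0.07), Sytl4, a protein of insulin granules (-0.15 ± 0.09), and Entpd3, a surface enzyme (-0.10 ± 0.07). Ero1b, the ER oxidase that acinar cells also use, was the higher one, with 13.06 and 13.11 against 12.71, 12.54 and 12.86, and its 0.38 ± 0.10 shrank to 0.10 after cyclic loess. Pdx1, the master regulator of β cells, differed by -0.07 ± 0.09.

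Neuroendocrine granule genes had a median of -0.07 (-0.08 after cyclic loess), with 1 of 12 separated with control STZ higher, Ptprn at 0.16 ± 0.07. After cyclic loess Ptprn overlapped, and 1 gene, Ptprn2, was separated lower at -0.31. Over all genes 15.4% were separated higher and 7.1% lower, and 9.88% and 12.7% after cyclic loess. Chga, the main granin, was high in low protein sham 1 only (9.05, against 8.20 to 8.28 on the other 4 arrays). Scg3 and Ptprn2, further granule proteins, differed by -0.18 ± 0.11 and -0.12 ± 0.09, and Pam, which amidates peptide hormones, by 0.12 ± 0.12. The 7 genes of the other islet cells had a median of 0.02 on both scales, with 1 separated each way, and 0 higher and 1 lower after cyclic loess. Ttr, the transthyretin of α cells, had 11.98 and 12.45 against 12.01, 11.10 and 11.20 (0.78 ± 0.29, adjusted p = 0.724), an overlap made by low protein sham 1. Irx1, an α cell transcription factor, was separated the other way at -0.28 ± 0.08. Rbp4, the retinol carrier, differed by 0.11 ± 0.09, and Ghsr, the ghrelin receptor of δ cells, by -0.09 ± 0.09.

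All 22 acinar enzyme genes were separated with control STZ higher, and this order did not hold after rescaling. Their differences ran from 0.23 to 0.70 with a median of 0.30. After cyclic loess the median was -0.15, with 14 of 22 separated with control STZ lower and 2 higher, so neither direction stands for these transcripts. Of them, 18 had signals between 15 and 16, where 2 of the 9 other genes were separated with control STZ higher. The mean over the list was 15.30 and 15.37 on the control STZ arrays and 15.05, 15.03 and 14.98 on the low protein sham arrays.

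Prss3, a trypsinogen, departed from the rest of the enzymes. It had signals of 15.15 and 15.20 in control STZ against 14.53, 14.53 and 14.34, and the difference of 0.70 ± 0.09 (adjusted p = 0.524) remained at 0.29 after cyclic loess, still separated. Spink1, the trypsin inhibitor of the same granules, had 14.72 and 14.70 against 14.33, 14.22 and 14.10, a difference of 0.49 ± 0.09 that was 0.10 after cyclic loess. Both were separated on both scales, the only enzyme list members with control STZ higher after cyclic loess. Pnliprp2, a lipase, and Pla2g1b, the pancreatic phospholipase, went from 0.35 and 0.39 to -0.09 and -0.035.

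Of 8 acinar transcription factor genes, 2 were separated with control STZ higher and 1 lower, and 1 higher and 3 lower after cyclic loess, so the balance turned. Over all genes the shares were 15.4% and 7.1%, and 9.88% and 12.7%. Bhlha15, which encodes MIST1, the factor that scales up acinar secretion, had 11.85 and 11.95 against 11.43, 11.15 and 11.58 (0.51 ± 0.13, and 0.31 after cyclic loess). Xbp1, the transcription factor of the unfolded protein response, had a difference of 0.32 ± 0.08 that was 0.02 after cyclic loess. Gata4 was lower by value at -0.19 ± 0.08, and Nr0b2, an orphan nuclear receptor, differed by -0.18 ± 0.09. The list median went from 0.055 to -0.035.

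The Reg genes encode small secreted lectins that acinar cells make after injury. Reg3b had the widest difference, with 10.37 and 10.21 in control STZ against 10.18, 9.54 and 8.77 (0.80 ± 0.37, adjusted p = 0.800, 0.74 after cyclic loess). Low protein sham 1 lay only just under control STZ 3, and after cyclic loess the groups overlapped. Reg1 and Reg3d differed by 0.31 ± 0.07 and 0.27 ± 0.07, and both turned negative after cyclic loess (-0.13 and -0.01). Reg2 had 10.99 and 10.90 against 11.17, 11.55 and 10.99, a difference of -0.29 ± 0.16, and was separated lower after cyclic loess at -0.45. The list had 3 of 7 separated higher and 0 lower with a median of 0.04, and 0 higher and 1 lower with a median of -0.025 after cyclic loess. Over all genes the shares were 15.4% and 7.1%, and 9.88% and 12.7% after cyclic loess. In the signal bands of Reg1 and Reg3d, 73.1% and 68.4% of the other genes were separated higher on the deposited scale.

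ER chaperones and other genes of the unfolded protein response (UPR) were higher by value in control STZ at 26 of 28 members. Over all genes 9516 of 15909 were above 0. Of genes with signals from 11 to 12, 12 to 13 and 13 to 14, 82.5%, 87.6% and 84.4% were. The list median was 0.45, and 15 members were separated with control STZ higher and 0 lower. Of the 9 members with signals from 12 to 13, 7 were separated higher, against 68.1% of the 185 other genes there, and of the 5 from 11 to 12, 1 was, against 46.8% of 515. After cyclic loess the median was 0.20 and 24 of 28 were above 0, against 7851 of 15909 over all genes. On that scale 5 were separated higher and 1 lower, against 9.88% and 12.7% over all genes. The share among bright genes was higher. Of the 9 members from 12 to 13, 2 were separated higher after cyclic loess, against 23.8% of the other genes there. Of the 5 from 13 to 14, 1 was, against 34.1%, and of the 5 from 11 to 12, 1 was, against 15.7%. The list mean was 12.10 and 11.82 on control STZ arrays 1 and 3, against 11.73, 11.38 and 11.55.

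Several of these genes are known to be induced through the ER stress element, CCAAT and CCACG with 9 bases of any kind (N) between them, which the factors ATF6 and XBP1 use together with NF-Y. The element stood in the promoter windows of 8 of 25 list genes with a RefSeq window (32%), and in 37 of 27025 genes with one (0.137%), counting both strands in 250 bases before to 50 bases after the start. Of the 8 genes, 5 ER chaperones and folding proteins were picked after their values were seen, and their windows are shown with the element in capitals, 40 bases on each side or fewer, and RefSeq coordinates of assembly GRCm38.p6. The windows are chr8:84847035-84847133 (minus strand), chr12:17266451-17266549 (plus strand), chr2:34771985-34772083 (plus strand), chr15:88819480-88819578 (plus strand) and chr10:86705493-86705694 (minus strand). In Hsp90b1 the element occurs at 2 places, in opposite orientations. The first matched bases stand at -162, -98, -65, -126 and -212 from the annotated start.

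Calr: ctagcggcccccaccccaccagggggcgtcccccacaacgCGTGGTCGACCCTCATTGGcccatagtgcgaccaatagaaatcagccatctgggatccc
Pdia6: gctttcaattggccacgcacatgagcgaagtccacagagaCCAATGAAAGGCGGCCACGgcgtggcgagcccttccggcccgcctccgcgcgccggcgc
Hspa5: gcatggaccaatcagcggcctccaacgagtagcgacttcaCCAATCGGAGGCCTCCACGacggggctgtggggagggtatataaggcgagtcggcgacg
Creld2: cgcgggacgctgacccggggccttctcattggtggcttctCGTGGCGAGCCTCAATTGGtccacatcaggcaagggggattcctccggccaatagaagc
Hsp90b1: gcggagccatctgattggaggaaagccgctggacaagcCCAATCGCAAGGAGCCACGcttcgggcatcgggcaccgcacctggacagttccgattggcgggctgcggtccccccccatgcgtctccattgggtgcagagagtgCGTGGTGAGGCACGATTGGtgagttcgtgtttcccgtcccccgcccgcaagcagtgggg

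Calr, the calcium-binding chaperone calreticulin, had signals of 13.87 and 13.49 in control STZ against 13.28, 12.92 and 13.05, a difference of 0.60 ± 0.15 (adjusted p = 0.577). Pdia6, a disulphide isomerase, had 12.58 and 12.14 against 11.97, 11.67 and 11.90 (0.52 ± 0.15). Both genes were separated, Pdia6 also after cyclic loess (0.28), where Calr overlapped at 0.28.

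Hsp90b1, the ER form of HSP90, had 14.12 and 13.43 against 13.42, 12.81 and 13.01 (0.69 ± 0.25), so control STZ 3 barely exceeded low protein sham 1. Hspa5, which encodes the master chaperone BiP, overlapped at 14.08 and 13.45 against 13.64, 13.09 and 13.26 (0.43 ± 0.23), and its difference was 0.12 without control STZ 1 and 0.75 without control STZ 3. Creld2, an ER stress-induced secreted protein, had 12.93 and 11.38 against 11.82, 10.71 and 11.13. Its difference of 0.94 ± 0.50 (adjusted p = 0.832) was 0.17 without control STZ 1 and 1.71 without control STZ 3. The 3 other genes with the element were Canx, calnexin, with 12.43 and 12.60 against 12.09, 11.73 and 12.20 (0.51 ± 0.15), Dnajc3, a cochaperone, at 0.42 ± 0.22, and Syvn1, a ubiquitin ligase that clears misfolded proteins. Syvn1 had 11.42 and 11.31 against 11.75, 11.31 and 11.38, a difference of -0.12 ± 0.14 that was -0.30 and separated lower after cyclic loess, the opposite direction to the others. Canx and Dnajc3 overlapped after cyclic loess. The 5 genes shown were brightest in control STZ 1, the array with the least 3' bias. In a fit with RNA integrity as a covariate Creld2 differed by 1.00 and Hspa5 by 0.46. The control STZ arrays hold both the least and the most 3' bias, with the low protein sham arrays between them. The mean bias of the groups was thus similar, and the covariate could move their difference only little. For that reason the fit says little about the part of RNA integrity. That part was not tested otherwise.

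The 4 members with the smallest p were all separated. P4hb, the disulphide isomerase that also serves collagen hydroxylation, had 14.85 and 14.86 against 14.46, 14.25 and 14.45 (0.47 ± 0.09), and overlapped after cyclic loess at 0.07. Sec61b, a subunit of the channel into the ER, had 13.80 and 13.58 against 13.33, 13.10 and 13.01 (0.55 ± 0.12, and 0.23 after cyclic loess). Dnajb9, a BiP cochaperone, had 10.91 and 11.33 against 10.54, 10.62 and 10.63 (0.53 ± 0.13), and Hyou1, a large ER chaperone, had 13.54 and 13.11 against 12.88, 12.65 and 12.63 (0.61 ± 0.15). Sec61b, Dnajb9 and Hyou1 stayed separated after cyclic loess. Ddit3, which encodes the pro-apoptotic factor CHOP, had 9.13 and 9.12 against 9.12, 9.16 and 9.08, a difference of 0.00 ± 0.07.

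Genes that ATF4 induces, for amino acid synthesis, import and charging of tRNAs, had a median difference of 0.42 over 22 members above the dim limit. Of these, 19 were above 0, against 9516 of 15909 over all genes and 82.5% of genes with signals from 11 to 12. Separated with control STZ higher were 11 members. Of the 7 members with signals from 11 to 12, 5 were, against 46.2% of the 513 other genes there. The median was 0.28 after cyclic loess, with 7 separated higher and 1 lower, against 9.88% and 12.7% over all genes. Low protein sham 2 had the lowest list mean at 10.27, against 10.82 and 10.74 on the other arrays of its group and 11.08 and 10.96 in control STZ.

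ATF4 is known to bind an amino acid response element, TGATGNAA. It occurred in the windows of 7 of 18 list genes (38.9%) and of 4.51% of all genes, on either strand. The windows of Gars and Asns, the 2 with the smallest p among these 7 genes, are shown as examples of tRNA charging and amino acid synthesis, with the element in capitals, at chr6:55037931-55038018 (plus strand) and chr6:7693185-7693272 (minus strand). Their first matched bases stand at -30 and -23.

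Gars: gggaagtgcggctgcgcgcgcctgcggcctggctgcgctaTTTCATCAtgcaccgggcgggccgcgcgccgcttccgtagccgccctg
Asns: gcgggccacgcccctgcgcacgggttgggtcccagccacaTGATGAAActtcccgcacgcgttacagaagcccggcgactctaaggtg

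Gars, the glycyl-tRNA synthetase, had 11.72 and 11.52 in control STZ against 11.14, 10.72 and 11.25 (0.58 ± 0.17, and 0.41 after cyclic loess). Nars, the asparaginyl-tRNA synthetase, had 12.72 and 12.53 against 12.23, 11.74 and 12.21 (0.56 ± 0.16, and 0.32 after cyclic loess). Both stayed separated on both scales. Asns, asparagine synthetase, had 13.35 and 13.20 against 13.04, 12.62 and 13.02 (0.38 ± 0.14), and overlapped after cyclic loess at 0.09.

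The 5 other genes with the element were mixed. Slc7a11, the cystine importer, differed by 0.29 ± 0.12 and was separated on both scales. Its mean signal of 6.75 is under the dim limit, so it is not among the 22 members counted above. Atf3, a stress-induced factor, differed by 0.19 ± 0.12 and overlapped after cyclic loess. Vldlr, a lipoprotein receptor, differed by 0.14 ± 0.16. Aars, the alanyl-tRNA synthetase, had 9.63 and 9.85 against 9.80, 9.62 and 9.87 (-0.03 ± 0.11, and -0.08 after cyclic loess), and Chac1, which degrades glutathione, differed by 0.12 ± 0.46 and by -0.10 after cyclic loess.

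Psat1, an enzyme of serine synthesis, showed the widest difference of the list, with 10.97 and 10.77 against 10.00, 8.85 and 10.31 (1.15 ± 0.41, adjusted p = 0.702, 1.06 after cyclic loess). Without low protein sham 2 it was 0.71. Phgdh, the brightest member of the list, differed by 0.07 and was the 1 member separated lower after cyclic loess, at -0.235. The transcription factors themselves were separated. Atf4 had 11.72 and 11.52 against 11.23, 11.08 and 11.11 (0.48 ± 0.09). Of its other 2 probe sets one differed by 0.56 and one by -0.17. Atf5, a related factor, had 12.16 and 12.00 against 11.39, 10.89 and 11.49 (0.82 ± 0.18, adjusted p = 0.559, 0.62 after cyclic loess). The control sham arrays averaged 11.32 ± 0.41 (SD, n = 3) and the low protein STZ arrays 11.39 ± 0.46 (SD, n = 3) for Atf5, so the control STZ mean of 12.08 lay above each of the other group means.

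All 22 ribosomal protein genes had differences above 0, as did 84.4% of genes with signals from 13 to 14. The list median was 0.54, and 21 members were separated with control STZ higher. All 10 members with signals from 13 to 14 were, against 62.5% of the 80 other genes there. After cyclic loess the median was 0.20, with 20 above 0, against 7851 of 15909 over all genes. On that scale 13 were separated higher, 6 of them in that band, where 30% of the other genes were. The list mean was 13.01 and 12.96 on the control STZ arrays and 12.61, 12.48 and 12.43 on the low protein sham arrays.

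Rps4x had 14.19 and 14.15 against 13.74, 13.58 and 13.59 (0.53 ± 0.08), and Rpl7 had 14.15 and 13.94 against 13.59, 13.47 and 13.44 (0.54 ± 0.09). Rps3 had 14.21 and 14.11 against 13.72, 13.56 and 13.55 (0.55 ± 0.08), and Rpl22 had 13.06 and 13.10 against 12.48, 12.63 and 12.33 (0.60 ± 0.10). These 4 had an adjusted p of 0.524 and stayed separated after cyclic loess, between 0.18 and 0.32. Other probe sets of Rps3 differed by 0.07 and -0.32, and those of Rpl22 by 0.37 and -0.10. Ribosomal protein genes have many near-identical processed pseudogenes, so their signals may be shared with copies. Translation of ribosomal protein transcripts is known to follow nutrient supply through a pyrimidine run at their start. Of 18 list genes with a promoter window, 6 had such a run of at least 6 bases (33.3%, against 11.9% of all genes). The run begins with C within 5 bases of the annotated start. It also stood in 5 of 18 acinar enzyme genes (27.8%), 3 of 18 ATF4 list genes (16.7%), 5 of 32 respiratory chain genes (15.6%) and 0 of 25 UPR genes. The search thus did not single out ribosomal protein genes.

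Respiratory chain genes of the nuclear genome were above 0 at 40 of 41 members. Of genes with signals from 11 to 12 and 12 to 13, 82.5% and 87.6% were above 0. The list median was 0.35, and 28 members were separated with control STZ higher. Of the 14 members with signals from 11 to 12, 10 were, against 45.9% of the 506 other genes there, and of the 13 from 12 to 13, 12 were, against 66.9% of 181. The median was 0.17 after cyclic loess, with 37 above 0, against 7851 of 15909 over all genes. On that scale 14 were separated higher and 1 lower, against 9.88% and 12.7% over all genes. Of the 14 members from 11 to 12, 4 were then separated higher, against 15.4% of the other genes there. Of the 13 from 12 to 13, 5 were, against 22.7%. The 4 with the smallest p were subunits of cytochrome c oxidase. Cox6b1 had 12.77 and 12.75 against 12.44, 12.33 and 12.30 (0.40 ± 0.07), and Cox5b had 13.11 and 13.20 against 12.80, 12.62 and 12.55 (0.50 ± 0.10). Cox7a2 differed by 0.55 ± 0.12 and Cox5a by 0.49 ± 0.11, with no overlap on either scale. Of the other 5 Cox5b probe sets, 3 differed by 0.42 to 0.49 and 2 by -0.01 and -0.04.

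The list means of all 4 groups are given for scale, on the deposited values only. The ribosomal list averaged 12.99 ± 0.07 in control sham, 12.98 ± 0.04 in control STZ, 12.51 ± 0.09 in low protein sham and 12.37 ± 0.36 in low protein STZ arrays (SD, n = 3, 2, 3 and 3). The respiratory list averaged 11.66 ± 0.16, 11.61 ± 0.11, 11.27 ± 0.11 and 11.07 ± 0.28, and the acinar enzymes 15.48 ± 0.05, 15.34 ± 0.05, 15.02 ± 0.03 and 14.92 ± 0.28, in the same order. For these 3 lists both control diet means lay above both low protein means. The UPR list averaged 11.73 ± 0.15, 11.96 ± 0.19, 11.55 ± 0.18 and 11.55 ± 0.45 and the ATF4 list 10.85 ± 0.09, 11.02 ± 0.09, 10.61 ± 0.30 and 10.66 ± 0.43, so there the control STZ mean was the highest of the 4, by less than the SD of the low protein STZ arrays.

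**Figure D3:**
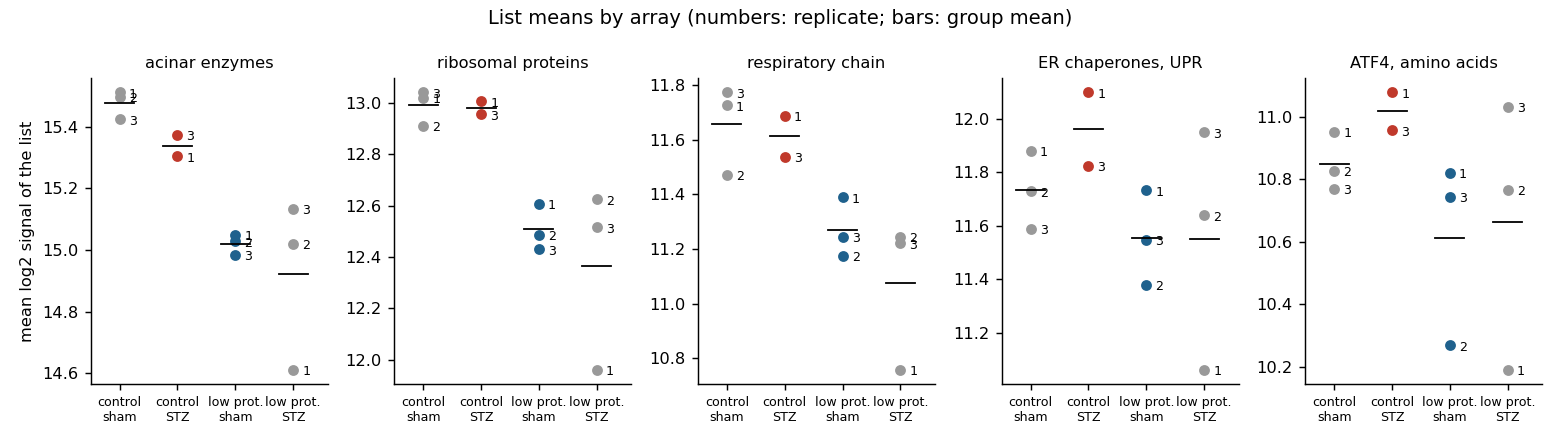
Mean log2 signal over the members of 5 gene lists on each array (points, with the replicate number; horizontal bars: group means), control STZ in red, low protein sham in blue and the groups outside the comparison in grey; the vertical axes differ and do not start at 0. On the deposited scale both control STZ arrays lie above all 3 low protein sham arrays in each panel, as at 13.01 and 12.96 against 12.61, 12.48 and 12.43 for ribosomal proteins, and the acinar median turned to -0.15 after cyclic loess.

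Among 25 oxidative stress genes 8 were separated with control STZ higher and 3 lower, against 15.4% and 7.1% over all genes, with a median of 0.14. The list's median signal was 10.07, against 8.74 over all genes. Of the 8 members with signals from 10 to 11, 4 were separated higher, against 26.3% of the other genes there. Of the 5 from 9 to 10, 0 were, against 15.5%, and of the 2 from 13 to 14, 1 was, against 67.0%. Rescaling by cyclic loess gave counts of 6 and 4, against 9.88% and 12.7%, and the median was 0.07. Of the 8 members from 10 to 11, 3 were then separated higher, against 10.3%, and of the 5 from 9 to 10, 0 were, against 8.75%. Txn1, thioredoxin, had 12.35 and 12.02 against 11.57, 11.66 and 11.62 (0.56 ± 0.11), while its other probe set differed by -0.41 ± 0.14, so the probe sets disagree. Sod1, the cytosolic superoxide dismutase, had 11.003 and 11.04 against 10.73, 10.63 and 10.59 (0.37 ± 0.07), and of its 4 other probe sets 2 were above and 2 below 0. Prdx4, the peroxidase of the ER, differed by 0.40 ± 0.12 and by 0.07 after cyclic loess. Gss, glutathione synthetase, is given with the lower genes below.

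Antigen presentation genes had a median of 0.19 (0.14 after cyclic loess), with 8 of 17 separated with control STZ higher and 0 lower on the deposited scale, and 7 and 1 after cyclic loess. The list's median signal was 8.84, and over all genes 15.4% were separated higher and 9.88% after cyclic loess. Psmb10, a subunit of the immunoproteasome, had 10.80 and 10.65 against 10.25, 9.98 and 10.24 (0.57 ± 0.11, adjusted p = 0.524, 0.47 after cyclic loess). H2-D1, a class I molecule, had 12.90 and 12.92 against 12.59, 12.53 and 12.50 (0.37 ± 0.07, and 0.10 after cyclic loess), and 5 of its 8 other probe sets differed by 0.27 to 0.32. Tap2, which loads peptides into the ER, had 8.69 and 8.67 against 8.48, 8.46 and 8.46 (0.21 ± 0.06), and H2-DMa of the class II pathway 0.20 ± 0.08. All 4 were separated on both scales.

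Interferon-induced genes were separated with control STZ higher at 7 of 20 members and lower at 1, with a median of 0.05, against 15.4% and 7.1% over all genes. After cyclic loess the counts were 4 and 1, against 9.88% and 12.7%, and the median was 0.02. Iigp1, an immunity GTPase, had 8.34 and 8.37 against 8.24, 8.08 and 7.91 (0.28 ± 0.11), and Irf7, an interferon regulatory factor, differed by 0.25 ± 0.10. Macrophage markers had a median of -0.01 (-0.02 after cyclic loess) with 2 of 16 separated each way (3 each way after cyclic loess), C1qb higher by value at 0.29 ± 0.07 and Tyrobp lower at -0.12 ± 0.06. B cell markers had a median of 0.035 (0.00 after cyclic loess) with 0 of 14 separated on either scale. T cell markers had a median of -0.01 (-0.06 after cyclic loess) with 1 higher and 2 lower of 10 on both scales.

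Endothelial markers had a median of 0.14 (0.12 after cyclic loess) at a median signal of 8.20, with 7 of 19 separated with control STZ higher (36.8%, against 15.4% over all genes) and 0 lower. After cyclic loess 6 were separated higher, against 9.88%, and 0 lower. Robo4, a guidance receptor of endothelium, had 8.40 and 8.23 against 8.13, 7.94 and 8.07 (0.27 ± 0.09). Tek, the angiopoietin receptor, had 7.75 and 7.74 against 7.67, 7.23 and 7.42 (0.31 ± 0.13), Eng, the endoglin coreceptor, differed by 0.17 ± 0.06, and Cd34 by 0.19 ± 0.08. Of the 19 members 17 were above 0 and 2 below, the lowest being Nos3 at -0.19, which overlapped on both scales. Vwf, a marker under the dim limit and so not counted, also differed by -0.19 and was separated lower after cyclic loess. The list mean was 8.54 and 8.42 against 8.39, 8.26 and 8.36, a narrow gap between control STZ 3 and low protein sham 1.

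Growth factor genes split in both directions. Of 24 members of the insulin-like growth factor list 5 were separated with control STZ higher and 4 lower, against 15.4% and 7.1% over all genes, and the median was 0.07. Rescaling by cyclic loess gave counts of 2 and 5, against 9.88% and 12.7%, so the balance turned, and the median was 0.00. Igf1, the circulating and local growth factor, had 10.71 and 10.90 against 10.39, 10.50 and 10.60 (0.31 ± 0.10), and Irs4, an adaptor of its receptor, differed by 0.18 ± 0.07. Igf2r, the receptor that clears IGF2, had 9.32 and 9.49 against 9.62, 9.64 and 9.80 (-0.28 ± 0.09), and was lower on both scales. Igf1r differed by -0.19 ± 0.07 at its brightest probe set, and the mean of its 5 probe sets differed by 0.02.

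Cell cycle genes had a median of -0.06 (-0.08 after cyclic loess). On the deposited scale 27 of 41 were below 0, against 6393 of 15909 over all genes. Of the 41, 4 were separated lower (9.76%, against 7.1% over all genes) and 3 higher. After cyclic loess 33 were below 0, against 8058 of 15909, with 8 separated lower (against 12.7%) and 3 higher. Cdc6, which licenses replication origins, had 6.87 and 6.76 against 7.10, 7.10 and 7.15 (-0.30 ± 0.07), close to the dim limit. Ccnd2, the cyclin known for β cell proliferation, had 10.55 and 10.21 against 9.98, 9.99 and 10.00 (0.39 ± 0.11, and 0.31 after cyclic loess). Mcm2, a helicase subunit, differed by 0.25 ± 0.08 at one probe set and -0.13 at the other. Foxm1, a mitotic transcription factor, differed by 0.31 ± 0.09 at its brightest probe set, by 0.02 there after cyclic loess, and by -0.14, 0.22 and -0.20 at its other 3.

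Alkylation damage and p53 target genes had a median of 0.03 (-0.03 after cyclic loess), with 1 of 17 separated with control STZ higher (5.88%, against 15.4% over all genes) and 2 lower (11.8%, against 7.1%). The counts were 1 and 4 after cyclic loess, against 9.88% and 12.7%. The higher one was Ccng1, a p53-induced cyclin, with 11.24 and 10.96 against 10.53, 10.49 and 10.73 (0.52 ± 0.12, and 0.39 after cyclic loess). Sesn1, a p53-induced sestrin, overlapped at 9.59 and 10.42 against 9.69, 9.06 and 9.49 (0.59 ± 0.28), and was 0.17 without control STZ 3 and 1.00 without control STZ 1. Mdm2, the ligase that restrains p53, differed by 0.15 ± 0.10, and Tnfrsf10b, a death receptor, by -0.13 ± 0.07.

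Duct markers had 0 of 9 separated on both scales and a median of 0.08 (0.02 after cyclic loess), with Krt8 at 0.26 ± 0.15. Stroma and matrix genes had 4 of 30 separated with control STZ higher and 1 lower, and 2 higher and 3 lower after cyclic loess, so the balance turned. Over all genes the shares were 15.4% and 7.1%, and 9.88% and 12.7%. The median was 0.08 (0.03 after cyclic loess), with the basement membrane genes Nid1 (0.45 ± 0.18) and Col4a1 (0.39 ± 0.18) at the top by p, both overlapping. Adipocyte markers had 3 of 12 separated higher and 1 lower with a median of 0.02, and 1 higher and 2 lower with a median of 0.01 after cyclic loess, with Fabp4 (0.53 ± 0.25) and Lpl (0.36 ± 0.15) overlapping and Car3 separated at -0.27 ± 0.09. Intestine, nerve, red cell and muscle markers had medians of 0.04, 0.03, 0.03 and 0.06, and of 0.03, 0.00, 0.015 and 0.05 after cyclic loess.

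**Figure D4:**
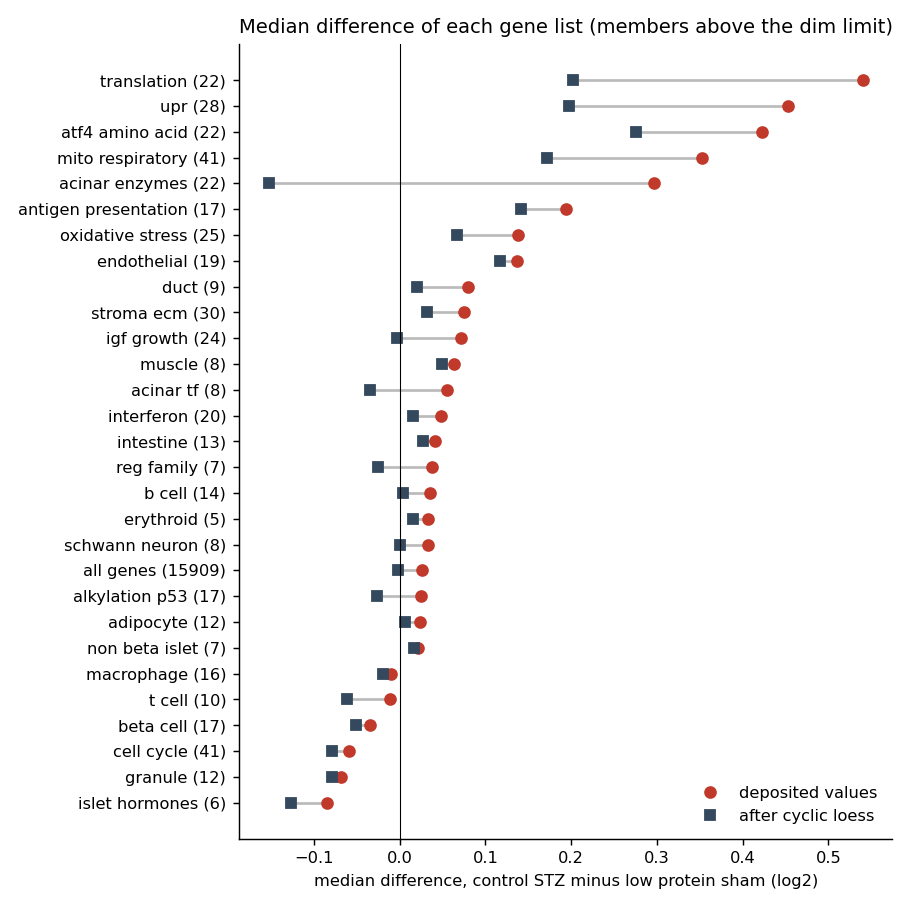
Median difference (control STZ minus low protein sham, log2) of each gene list and of all genes, on the deposited values (red circles) and after cyclic loess (dark squares), with the number of members above the dim limit in brackets; upr marks ER chaperones and the unfolded protein response, atf4 amino acid the ATF4 targets, translation the ribosomal proteins and acinar tf the acinar transcription factors. The ribosomal median goes from 0.54 to 0.20, and that of acinar enzymes from 0.30 to -0.15.

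The 10 genes with the smallest p and control STZ higher were Prss3, Rps4x, Rps3 and 7 others, each with an adjusted p of 0.524. Eef1d, a subunit of the elongation factor 1 complex, had 11.80 and 11.72 against 11.28, 11.16 and 11.18 (0.56 ± 0.07), and Eif3k, a subunit of an initiation factor, had 11.75 and 11.61 against 11.19, 11.10 and 11.13 (0.54 ± 0.08). Nme1, a nucleoside diphosphate kinase, had 11.90 and 12.01 against 11.52, 11.35 and 11.40 (0.53 ± 0.08). In all 3 genes the gap between the groups was wider than the spread within either, which the choice by smallest p among separated genes favours.

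Atp6ap2, the prorenin receptor of the proton pump, had 11.93 and 11.88 against 11.43, 11.47 and 11.29 (0.51 ± 0.08). Fkbp1a, an immunophilin, differed by 0.47 ± 0.07, Serinc3, a membrane protein, by 0.47 ± 0.07 and Tff2, a secreted trefoil peptide, by 0.46 ± 0.07. All but Tff2 stayed separated after cyclic loess. Of 18 other probe sets of 7 of these genes, 17 were above 0 on the deposited scale, with a median of 0.35. Over genes, the share above 0 went from 55.8% at signals of 8 to 9 to 87.6% at 12 to 13. The 18 probe sets were not set against others of like signal.

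The 10 genes with the smallest p and control STZ lower also had an adjusted p of 0.524 each. Ptgr2, a prostaglandin reductase, had 9.20 and 9.15 against 10.04, 9.93 and 10.36 (-0.93 ± 0.13), a gap of more than 0.7 between the nearest arrays. Armc8, a subunit of a ubiquitin ligase complex, had 13.08 and 12.77 against 13.81, 13.59 and 13.85 (-0.82 ± 0.12), and Hoxa5, a homeobox factor, had 10.97 and 11.21 against 11.99, 11.66 and 11.97 (-0.79 ± 0.13). Each was lower in both control STZ arrays by a margin wider than the spread within either group, which the choice by smallest p favours.

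Slc5a9, a sodium and sugar cotransporter, had 8.56 and 8.79 against 9.38, 9.22 and 9.45 (-0.68 ± 0.11). Pttg1, securin, a regulator of sister chromatid separation, had 12.63 and 12.65 against 13.25, 13.32 and 13.26 (-0.64 ± 0.07). Its spreads within the groups were 0.01 and 0.04 (SD), and narrow spreads are favoured by the same choice. Gss, which makes glutathione, had 11.14 and 10.92 against 11.58, 11.72 and 11.62 (-0.61 ± 0.09). Eef1akmt1, a methyltransferase of an elongation factor, differed by -0.57 ± 0.09, Zfp518b, a zinc finger protein, by -0.47 ± 0.08, Stap2, a signalling adaptor, by -0.38 ± 0.06 and Kiz, a centrosome protein, by -0.36 ± 0.06.

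All 10 lower genes stayed separated after cyclic loess. In arrays outside the comparison, 9 of them were also lower in all 3 control sham arrays than in all 3 low protein STZ arrays, Kiz being the exception, against 5.27% of all genes separated that way. Of the 10 higher genes, 5 were higher in all control sham arrays, against 11% of all genes. The 10 higher genes all had mean signals above 11. The share among genes of like signal was not worked out for these arrays, so the count is not set apart from the trend with brightness. For Ptgr2 the control sham mean was 9.15 ± 0.20 and the low protein STZ mean 10.01 ± 0.57 (SD, n = 3 each), and for Armc8 12.57 ± 0.40 and 13.74 ± 0.30.

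These lower values each belong to the brightest probe set of the gene. Of 21 other probe sets of 9 of the genes, 9 were above 0 and 12 below, from -0.35 to 0.17 with a median of -0.03. The other 5 probe sets of Ptgr2 differed by -0.10 to 0.09, the other one of Gss by 0.03 and the other one of Hoxa5 by 0.03. The transcripts that the separated probe sets detect were not analysed here.

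**Figure D5:**
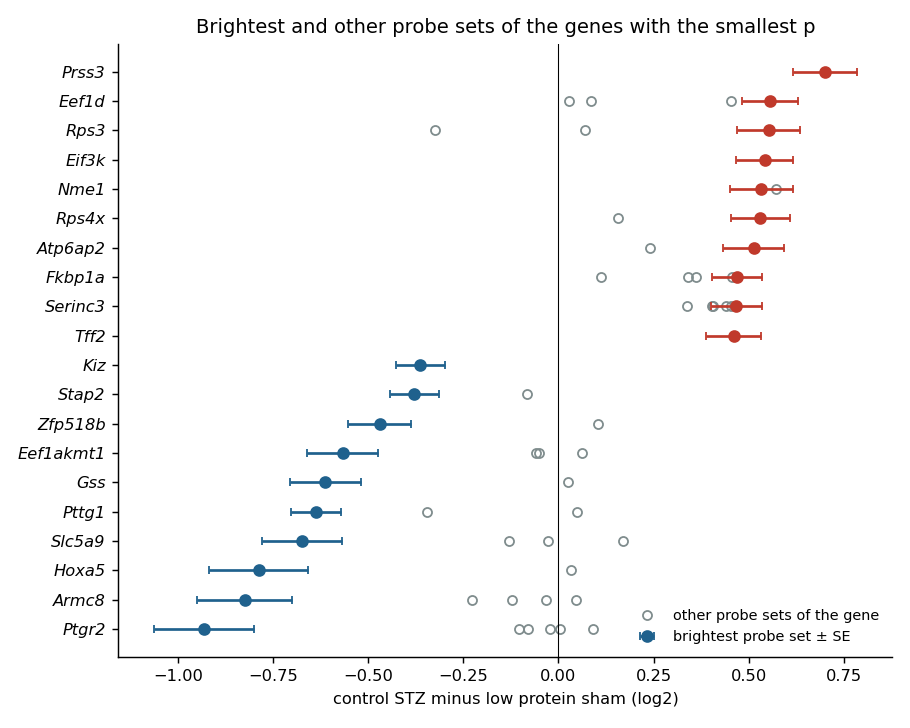
Difference (control STZ minus low protein sham, log2) of the brightest probe set, with its SE, for the 10 higher (red) and 10 lower (blue) genes with the smallest p, and of the other probe sets of the same genes (open circles). On the deposited scale shown, where bright genes mostly lie above 0, the other probe sets of the higher genes do so at 17 of 18. Those of the lower genes lie around 0, 9 above and 12 below.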

How the data were processed

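Whole pancreas RNA was hybridised to Affymetrix arrays. Each deposited value is a log2 signal of 1 probe set. The submitters' processing notes list RMA and Partek 6.5 and give neither a role. Precision is limited by the number of arrays. Of 45101 probe sets, 34958 carried 1 gene symbol in the platform annotation and were tested, and 932 with several and 9211 with none were left out. No probe set was named for Ins1 alone.

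A model with 2 group means was fitted to the 5 arrays with limma 3.58.1 in R 4.3.3 (lmFit, eBayes, two-sided), with Benjamini-Hochberg adjustment and a threshold of 0.05. The script was tested on simulated data. Each of 18194 genes is described at its probe set with the highest mean, and 2285 genes at or under 6.87, the 0.25 quantile of probe set means, stay out of list counts. Tables were made with Python 3.11.15.

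Named genes are the islet hormones, G6pc2 and Slc2a2, the 10 per direction with the smallest p among separated genes, and, of each list described, up to 4 members by smallest p. Other genes were named after their values were seen. The comparison and the 28 gene lists were chosen with earlier results of these data known. Alternatives covered the arrays fitted, dim probe sets, moderation, array weights, cyclic loess, array medians, a replicate block, an RNA integrity covariate, all probe sets of a gene and each array left out. Dim list members kept and counts after cyclic loess were added after seeing the data. P-values measure the spread between these samples.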

Additional observations from a re-analysis of the deposited data

How the results depend on the processing

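With limma, 0 probe sets passed the adjusted threshold in each of the alternative fits, where the smallest adjusted p ranged from 0.292 to 1 and 1212 to 3994 probe sets had an unadjusted p under 0.05. The replicate block also gave 0, and same-numbered arrays of control STZ and low protein sham deviated with correlations of -0.16 and -0.32. Over all same-numbered pairs of the 4 groups these ran from -0.32 to 0.30, so the numbers were not taken to pair the samples. At an unadjusted p with at least a 1.5-fold difference there were 86, and 55 to 492 with each array left out (without a control STZ array, that group's spread is assumed from the other group). Cyclic loess turned Pnliprp2 (-0.09), Pla2g1b (-0.035), Reg1 (-0.13), Reg3d (-0.007), Ddit3 (-0.025), Chac1 (-0.10) and the medians of acinar enzymes (-0.15), acinar transcription factors (-0.035), the Reg family (-0.025), the alkylation list (-0.027) and the growth factor list (-0.003). Equal array medians turned Ddit3 (-0.012), array weights turned Ppy (0.023) and Pyy (0.007), and the mean of all probe sets turned Igf1r (0.023) and Aars (0.016). The replicate block turned Chac1 (-0.26). With each array left out in turn, Iapp ranged from -0.65 to 0.18, Ppy from -0.24 to 0.19, Pyy from -0.33 to 0.26, Pam from -0.014 to 0.26, Ddit3 from -0.017 to 0.022, Pdx1 from -0.14 to 0.015, Syvn1 from -0.20 to 0.018, Aars from -0.14 to 0.082, Chac1 from -0.26 to 0.60, Vldlr from -0.003 to 0.28 and Chga from -0.38 to 0.041. The B cell marker median turned to -0.01 under the replicate block and to -0.004 with the mean of all probe sets, and ranged from -0.01 to 0.048 with arrays left out, as the intestine median did from -0.005 to 0.06. The cause was not tested. Of 117 named genes, 101 kept their direction in all fits run, and 0 gene values passed in any. Phgdh, which cyclic loess turned, is not among the 117, and neither are Nos3 and Vwf.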
